A study of Apis mellifera with 12 samples.

Results

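Of the 17621 loci in the deposited tables, 8002 carried no gene name, and 7983 of these had a valid estimate in all 12 libraries. These 7983 loci, called unnamed loci here, were set against the 8436 loci that carried a single gene name and had a valid estimate in all 12 libraries. A further 1050 valid loci joined several gene names, which brought all valid loci to 17469. The unnamed loci were chosen by the missing name and the status of the estimate, and their levels played no part in the choice. They are given by the XLOC numbers of the files and by the files' coordinates, whose genome build is not named in the sources used here.

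Poly(A) RNA came from whole wild-type embryos of *Apis mellifera carnica*, diploid females and haploid males, collected at 3 ages, 10–15 h, 25–40 h and 55–70 h counted from laying, and each combination of sex and age had 2 libraries. A pool held 100 embryos at 10–15 h, 60 at 25–40 h and 30 at 55–70 h, and its embryos had 3 mothers. The methods of the study describe mated queens as mothers of females and unmated queens given CO2 as mothers of males, so sex and kind of mother cannot be told apart if this held for these pools. Separate collection of the pools of a group is not stated in the labels, so the p-values rest on a spread between libraries that could be purely technical.

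A transcript assembler places a locus wherever aligned fragments pile up, whether or not an annotated gene lies there. Loci without a name can hold long non-coding RNAs, exons or gene ends missing from the annotation, pieces of introns, or small structural RNAs such as tRNAs. In an insect embryo the earliest transcripts are laid down by the mother, and the genome of the embryo takes over while the body axis and its segments are patterned. Levels are in FPKM, fragment numbers scaled to locus length and to the mapped fragments of the library. The files give a lower and an upper confidence bound for each FPKM but no counts, so the depth behind a value is unknown.

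Unnamed loci were short. Their median length was 600 bases, with quartiles of 389 and 1081 bases, against a median of 4404.5 bases for named single-gene loci. Loci under 1 kb made up 72.4% of the unnamed and 4.95% of the named single-gene loci. The range ran from 37 bases to the 344228 bases of XLOC_002402 on chromosome 2. All 197 unnamed loci of up to 100 bases were listed at 0 in all 12 libraries, and 168 of the 197 measured 60 to 79 bases. Of the 41 named single-gene loci of up to 100 bases, 40 were also at 0 in all 12 libraries. On the mitochondrial sequence 17 unnamed loci of 63 to 72 bases had the same start and end as tRNA genes of RefSeq, and these 17 were listed at 0 in every library.

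**Figure D1:**
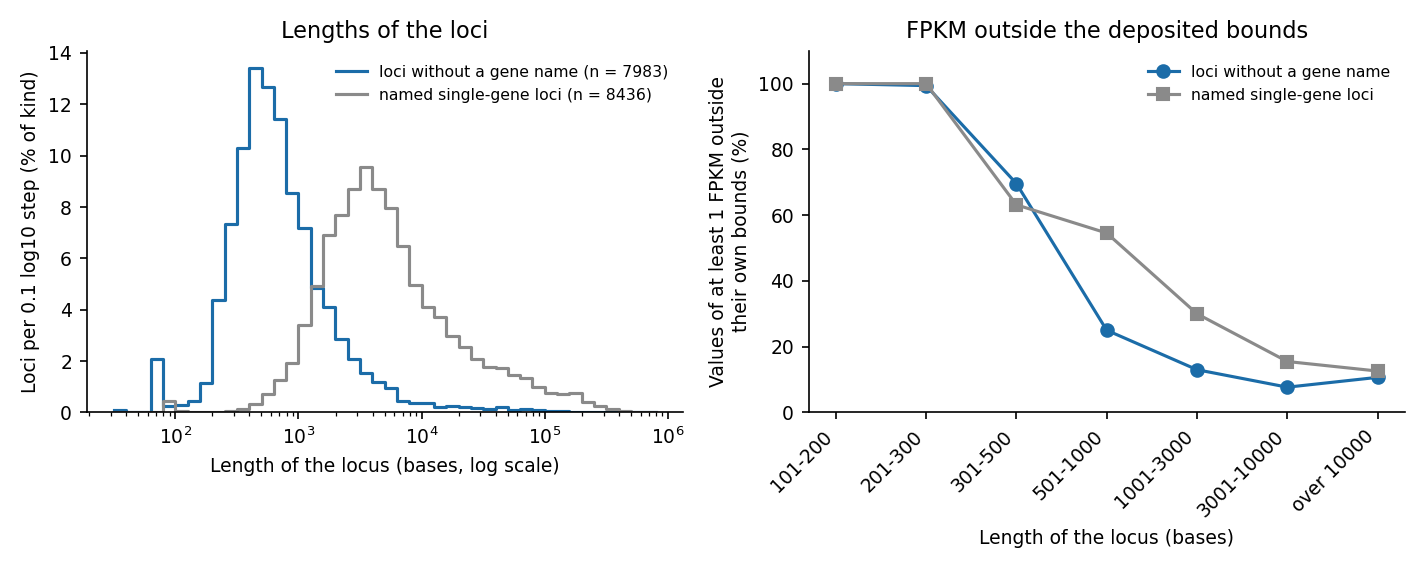
Left, lengths of the 7983 unnamed loci and the 8436 named single-gene loci in bases on a log scale, as the percentage of each kind in steps of 0.1 log10 units; the unnamed loci peak near their median of 600 bases and the named ones near 4404.5 bases. Right, percentage of values of at least 1 FPKM that lay outside their own deposited confidence bounds, by length of the locus, which fell from 100% at 101–200 bases to 7.67% at 3001–10000 bases for unnamed loci.

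About the surroundings of the unnamed loci, 34.7% lay within the span of a named locus and 0.889% overlapped it in part. A further 14.0% lay within 1 kb of the nearest named locus, 28.2% at 1–10 kb and 22.2% farther than 10 kb. The files give no strand, so an unnamed locus inside a gene's span may share its reads or lie antisense to it, and these cases cannot be told apart here. A mean of 1 FPKM was reached by 49.3% of the loci that overlapped a named locus in part and 38.4% of those within 1 kb, compared with 17.6% inside named spans, 21.7% at 1–10 kb and 17.4% beyond 10 kb. Chromosome 16 held 1.64 unnamed loci per named single-gene locus, chromosome 13 1.59, chromosome 6 1.47 and chromosome 10 1.31. On the other 12 chromosomes the ratio ranged from 0.728 to 0.947.

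Most unnamed loci had low levels. A mean of at least 1 FPKM over the 12 libraries was reached by 1750 unnamed loci (21.9%) and by 7339 named single-gene loci (87.0%). A mean of at least 10 FPKM was reached by 184 (2.30%) and 4256 (50.5%) loci, and a mean of at least 100 FPKM by 25 and 655 loci. The 1750 loci included 153 of the 154 unnamed loci of 101–200 bases and 382 of the 784 of 201–300 bases. Of the 2613 unnamed loci of 501–1000 bases they included 286. The median of the mean level was 0.425 FPKM for unnamed and 10.2 FPKM for named single-gene loci. Levels above 0 in all 12 libraries were found for 17.7% of the unnamed and 86.6% of the named single-gene loci, and 132 unnamed loci reached 1 FPKM in every library.

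For short loci the FPKM often lay outside its own confidence bounds. Of all values of at least 1 FPKM, 44.7% were outside the bounds in unnamed loci and 20.4% in named single-gene loci. In unnamed loci this share depended on length. It was 100% at 101–200 bases, 99.4% at 201–300 bases, 69.6% at 301–500 bases, 25.0% at 501–1000 bases and 13.0% at 1001–3000 bases. At equal length the order of the 2 kinds was not the same, since 54.6% of the values of named single-gene loci were outside at 501–1000 bases and 30.0% at 1001–3000 bases. In unnamed loci the FPKM was a median of 9.99 times the midpoint of its bounds at 101–200 bases and 1.05 times at 1001–3000 bases. The FPKM of short unnamed loci and the midpoint of their bounds are therefore different measures of the same locus, and the share of FPKM is given with and without loci of up to 200 bases.

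The highest mean levels among unnamed loci belonged to very short loci above 0 in few libraries. XLOC_002249, a locus of 101 bases on chromosome 1 (24853853 to 24853953), had 15660 FPKM in female 10–15 h replicate 2, where its bounds were 1.29 and 4.93 FPKM, and was listed at 0 in the other 11 libraries. XLOC_014895 on chromosome 13 and XLOC_002364 on chromosome 1, also of 101 bases, both had 14236 FPKM in that same library and 0 in the other 11. XLOC_007565 on chromosome 6, again of 101 bases, had 14034 FPKM in male 55–70 h replicate 1 only. These 4 loci of 101 bases were the shortest unnamed loci tested, each above 0 in a single library, and so both libraries were above 0 in no group. XLOC_007959, of 106 bases on chromosome 6, had 1852 FPKM in female 55–70 h replicate 2 and 8204 and 985 FPKM in the male 55–70 h libraries, with 0 in the other 9 libraries.

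In all, 13 unnamed loci reached 1000 FPKM in some library, and 12 of these were listed at 0 in at least 1 other library. These 12 measured 101 to 157 bases. Both states occurred within a single group for 9 of the 12, and 5 were above 0 in only 1 library. XLOC_003119 had 552 FPKM in female 25–40 h replicate 2 and 7267 FPKM in male 25–40 h replicate 2, and was listed at 0 elsewhere. XLOC_004319 had 6056 FPKM in male 25–40 h replicate 2 alone. XLOC_015779 had 124 FPKM in female 55–70 h replicate 2 and 1469 FPKM in male 55–70 h replicate 1, and XLOC_001930 had 1254 FPKM in female 10–15 h replicate 2 and 202 FPKM in male 25–40 h replicate 1. None of these 4 loci had both libraries of a group above 0.

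The other 3 of the 12 loci showed the same age course in both sexes. XLOC_010883, of 111 bases on chromosome 9 and 32392 bases from *Dop3*, a dopamine receptor gene, had 1905 and 1834 FPKM in females and 2931 and 2491 FPKM in males at 25–40 h. At 10–15 h it was listed at 0 in 3 of 4 libraries and at 85.8 FPKM in female replicate 1, and at 55–70 h it ranged from 91.4 to 532 FPKM. XLOC_014927, of 157 bases on chromosome 13, had 1809 and 2122 FPKM in females and 1808 and 1815 FPKM in males at 25–40 h, against 0 to 52.8 FPKM at 10–15 h and 345 to 789 FPKM at 55–70 h. XLOC_016655, of 118 bases on chromosome 15 and 797 bases from *Obp21*, an odorant-binding protein gene, had 1240 to 1514 FPKM at 25–40 h, 0 to 34.6 FPKM at 10–15 h and 63.6 to 299 FPKM at 55–70 h. In each of the 3 loci the 25–40 h libraries lay above all 8 others. Their bounds were far lower, with an upper bound of 10.9 FPKM for XLOC_010883 in male 25–40 h replicate 1, where the FPKM was 2931.

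The 13th locus that reached 1000 FPKM was above 0 everywhere. XLOC_000029, with the start and end of a mitochondrial rRNA gene of RefSeq (14732 to 15517, 786 bases), had 1205 and 1830 FPKM in females at 10–15 h and 448 and 180 FPKM in males. Its levels at 25–40 h were 352 and 934 FPKM in females and 1042 and 985 FPKM in males, and at 55–70 h 188 and 126 FPKM in females and 267 and 52.6 FPKM in males. All 4 libraries of 55–70 h lay below 7 of the other 8 libraries. From 25–40 h to 55–70 h it fell by 2.49 on the log2 scale (limma, Benjamini–Hochberg adjusted p = 0.00156). This locus was singled out after its values were seen.

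**Figure D2:**
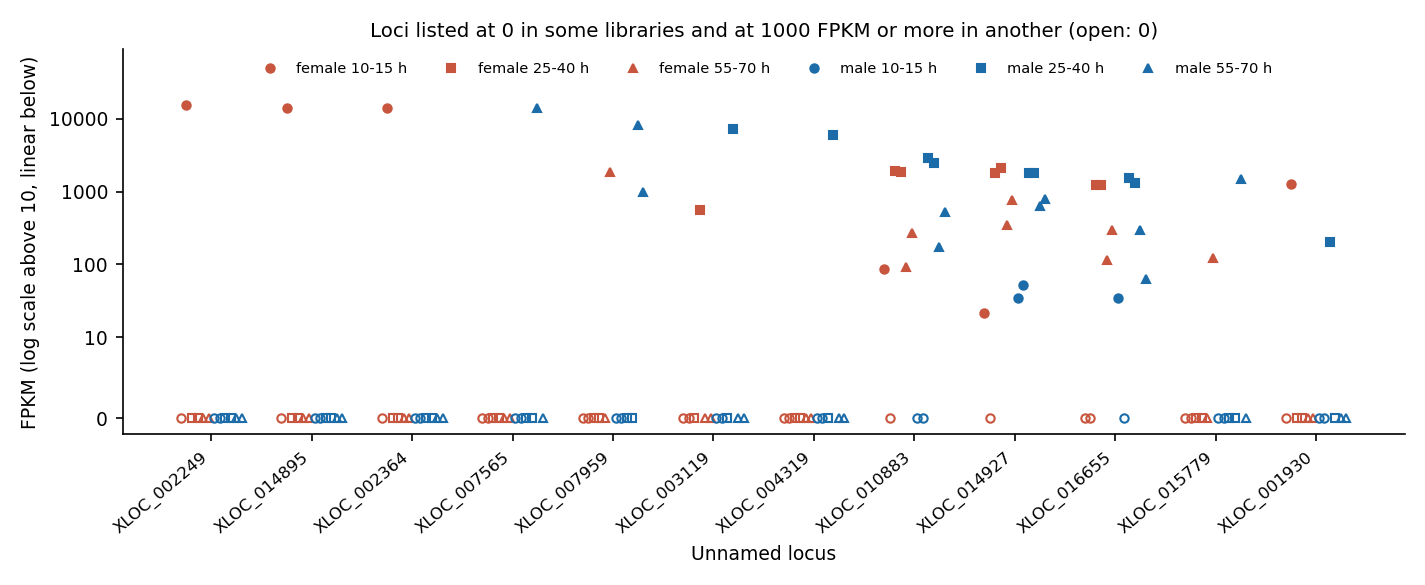
FPKM of the 12 unnamed loci that were listed at 0 in at least 1 library and reached 1000 FPKM in another, with 1 point per library, coloured by sex and shaped by age (log scale above 10 FPKM, linear below, open symbols at 0). The first 7 loci were at 0 in 9 to 11 libraries, whereas XLOC_010883, XLOC_014927 and XLOC_016655 were above 1000 FPKM in all 4 libraries of 25–40 h.

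Further down the scale the mixture of 0 and high values was still frequent. Of the 65 unnamed loci that reached 100 FPKM, 45 were also listed at 0 somewhere, and of the 666 that reached 10 FPKM, 404 were (60.7%). Among named single-gene loci that reached 10 FPKM this applied to 204 of 5808 (3.51%). The loci next below 1000 FPKM were XLOC_009809 (highest 949 FPKM), XLOC_012203 (940), XLOC_014012 (873), XLOC_014093 (847) and XLOC_016861 (818), all of 111 to 115 bases. XLOC_016861 was the most regular of the 5, with 301 to 818 FPKM in the 4 libraries of 25–40 h, 154 to 455 FPKM at 55–70 h and 0 in all 4 at 10–15 h.

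Few unnamed loci were at 0 in one sex and high in the other at the same age. XLOC_004193, of 129 bases on chromosome 3, was listed at 0 in both female libraries of 55–70 h and had 29.5 and 128 FPKM in the males. XLOC_015001, of 124 bases on chromosome 13, was at 0 in the same female libraries and had 64.1 and 18.5 FPKM in the males. XLOC_012169, of 121 bases on chromosome 10, was at 0 in both male libraries of 25–40 h and had 22.1 and 27.4 FPKM in the females, and XLOC_008885, of 130 bases on chromosome 7, was at 0 in both male libraries and had 44.3 and 13.7 FPKM in the females. These 4 were the only loci with 0 in both libraries of a sex and at least 10 FPKM in both of the other, and in none of them did the values above 0 lie within their bounds. Since no counts are given, no fold can be computed against a group listed at 0.

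The number of unnamed loci of at least 1 FPKM increased with age. The female libraries of 10–15 h held 997 and 1001 such loci, those of 25–40 h 1614 and 1355, and those of 55–70 h 2458 and 2296. The male libraries held 966 and 979, 1506 and 1742, and 2627 and 2445 in the same order of ages. The mean of the 4 libraries was 985.75, 1554.25 and 2456.5 loci in the 3 ages, and the ages did not overlap. Each step had the smallest p that an exact two-sided permutation test of 4 against 4 libraries allows (p = 0.0286, adjusted p = 0.0643 over 9 tests), so neither passed 0.05 after adjustment. The number of unnamed loci of at least 10 FPKM had means of 116.75, 160.75 and 263, with the same p-values. Named single-gene loci of at least 1 FPKM numbered 5404 to 5858, 6513 to 6748 and 7092 to 7289 in the 3 ages. The summed FPKM of all valid loci also rose with age. It was 401513–422936 at 10–15 h, 483057–623182 at 25–40 h and 667194–716706 at 55–70 h. The cuts of 1 and 10 FPKM were not adjusted for these sums, and their part in the counts was not tested. Between the sexes the number of unnamed loci of at least 1 FPKM differed by -90.7 (females minus males, 1620 against 1711), within the spread of the libraries (exact permutation of the sexes within ages, p = 0.231, adjusted p = 0.417).

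The share of all FPKM that lay in unnamed loci had a median of 3.03% over the libraries, and of 1.98% without loci of up to 200 bases. It was 14.3% in female 10–15 h replicate 2 but 2.28% in female 10–15 h replicate 1, and 1.92% and 1.83% in the males of that age. At 25–40 h it was 3.14% and 3.26% in females and 4.09% and 6.37% in males, and at 55–70 h 2.63% and 2.61% in females and 6.37% and 2.93% in males. Loci of up to 200 bases held 12.3% of all FPKM in female 10–15 h replicate 2, and without loci of that length the unnamed share ranged from 1.46% to 2.17% over the 12 libraries. At the midpoint of the bounds it ranged from 1.24% to 1.93%. The test of the share was not passed for females against males (0.777 percentage points higher in females, exact permutation p = 0.944) or for successive ages (-0.861 points, p = 1, and -0.579 points, p = 0.486), and the sign of all 3 changed under alternatives given in the closing section. Without values outside their bounds it was 0.634 points higher at 25–40 h than at 10–15 h, with the smallest p the exact permutation test allows (p = 0.0286).

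**Figure D3:**
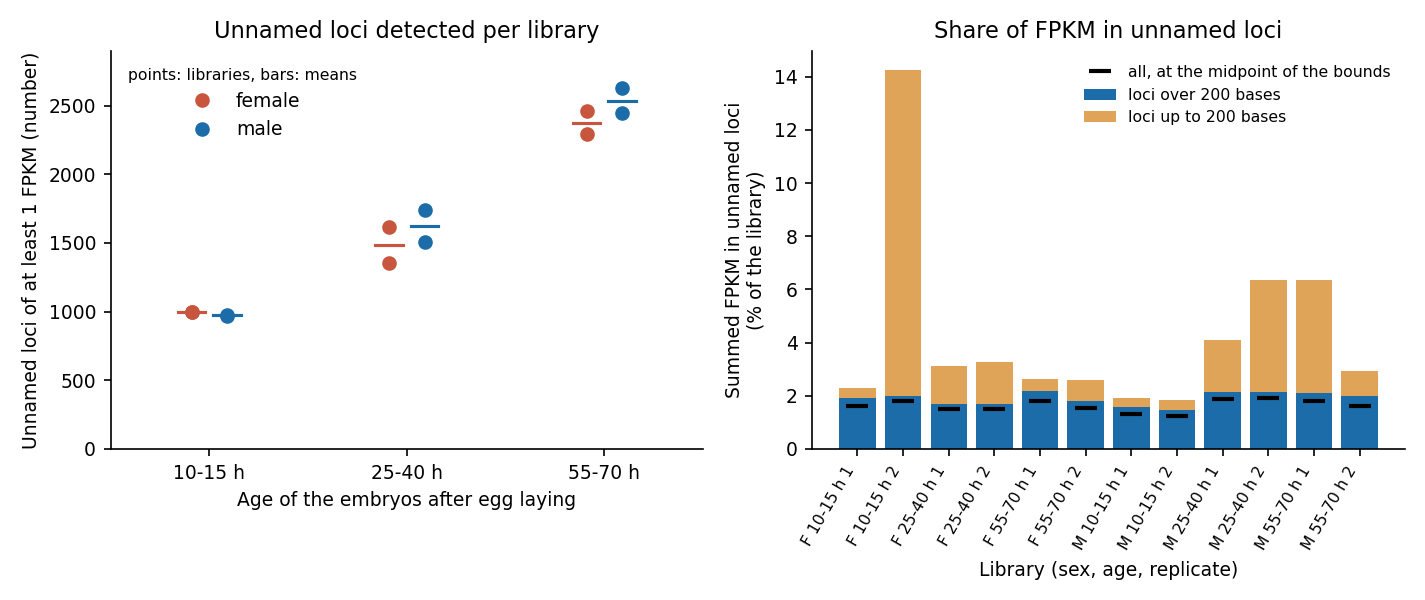
Left, number of unnamed loci of at least 1 FPKM in each library (points) with the mean of the 2 libraries of a group (bars), by age and sex, which lay between 966 and 1001 at 10–15 h and between 2296 and 2627 at 55–70 h. Right, summed FPKM in unnamed loci as a percentage of the library, split into loci of up to 200 bases and longer loci, with the same percentage at the midpoint of the bounds (black marks); the part in longer loci stayed between 1.46% and 2.17% in all 12 libraries.

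Replicate libraries correlated less well over unnamed than over named loci, and least over the short loci. Among the 1750 unnamed loci whose mean reached 1 FPKM, the median absolute difference between the 2 libraries of a group was 0.30 ± 0.15 on the log2(FPKM + 1) scale (mean ± SD of 6 groups), compared with 0.29 ± 0.09 for 7339 named single-gene loci, a difference smaller than the spread over groups. Unnamed loci mostly had lower levels, and within every bin of mean FPKM their value was the larger. It was 0.28 against 0.24 at 1–3 FPKM and 0.41 against 0.32 at 10–30 FPKM, with an SD over groups of 0.09 to 0.16. Across loci, the Pearson correlation between the 2 libraries of a group ran from 0.737 to 0.892 in unnamed and from 0.945 to 0.992 in named single-gene loci. For unnamed loci over 1 kb (n = 670) it ran from 0.879 to 0.983, and for those of up to 300 bases (n = 535) from 0.500 to 0.742. At a mean of 1–3 FPKM it ran from 0.731 to 0.951 in unnamed loci over 1 kb and from 0.712 to 0.939 in named single-gene loci. Loci of a library are not independent, and these correlations are descriptions. The median SD within groups was 0.40 for unnamed and 0.30 for named single-gene loci, and for unnamed loci over 1 kb it was 0.30.

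To ask which unnamed loci changed with age and sex, log2(FPKM + 1) was fitted for the 10105 valid loci whose mean reached 1 FPKM. The fit used limma, with p-values adjusted over all of them by Benjamini–Hochberg and a threshold of 0.05. The 1750 unnamed loci among them are those that passed the filter on low values, and the other unnamed loci were not tested. A locus can pass it through its highest group alone, so the counts below describe the loci that passed.

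Most tested unnamed loci changed between 10–15 h and 25–40 h. With the sexes averaged, 828 of 1750 rose (47.3%) beside 47.6% of all tested loci, and 314 fell (17.9%) beside 23.6%. In either direction 46.5% of the unnamed loci of up to 300 bases were called (n = 535). It was 71.6% for those over 300 to 1000 bases (n = 545) and 75.1% over 1 kb (n = 670), beside 72.4% of named single-gene loci. The median difference was 0.64 on the log2 scale in unnamed loci, 0.48 in named single-gene loci and 0.50 in all tested loci. Under quantile normalization the median of all loci was -0.03 and the split was 536 higher and 470 lower, so the excess of rising over falling loci depended on the scaling.

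XLOC_011097, of 7161 bases on chromosome 10 (7453400 to 7460560), lay within a locus that joins LOC100578824 and LOC410001 and had the largest rise among loci that were above 0 and within their bounds in all 8 libraries, with no overlap of the ages, which is the rule for the loci named in each direction. Its levels at 10–15 h were 0.237 and 0.0863 FPKM in females and 1.75 and 1.64 FPKM in males, and at 25–40 h 328 and 282 FPKM in females and 152 and 275 FPKM in males. It rose by 7.15 ± 0.27 (SE) on the log2 scale (limma adjusted p = 7.58e-09). At 55–70 h it was between 37.3 and 87.1 FPKM, below all 4 libraries of 25–40 h. XLOC_016990 rose by 5.23 ± 0.23 (limma adjusted p = 1.74e-08) and is described with the Hox complex. XLOC_017211, of 3730 bases on chromosome 16 and 7698 bases from LOC411953, had 0.125 to 0.231 FPKM at 10–15 h, 43.7 and 9.57 FPKM in females and 94.1 and 75.8 FPKM in males at 25–40 h, and 1.93 to 5.36 FPKM at 55–70 h. Its rise was 5.18 ± 0.39 on the log2 scale (limma adjusted p = 6.92e-07), with male levels above female levels at 25–40 h.

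The largest falls from 10–15 h to 25–40 h by that rule were at loci that stayed low afterwards. XLOC_005917, of 61299 bases on chromosome 5 (5303215 to 5364513) and 108 bases from a locus joining LOC100578275 and LOC100578984, had 57.9 and 59.1 FPKM in females and 41.2 and 38.4 FPKM in males at 10–15 h. By 25–40 h it had 0.866 and 1.18 FPKM in females but 19.0 and 10.05 FPKM in males, and at 55–70 h it had 0.107 to 0.297 FPKM. Averaged over the sexes it fell by 3.17 ± 0.20 on the log2 scale (limma adjusted p = 2.05e-07). XLOC_002847, of 22363 bases on chromosome 2, fell from 11.9–18.4 FPKM to 0.347 and 0.418 FPKM in females and 2.77 and 0.952 FPKM in males (limma adjusted p = 6.22e-07). XLOC_002447, of 1765 bases on chromosome 2, fell from 20.7–30.5 FPKM to 0.384 and 0.497 FPKM in females and 6.99 and 4.50 FPKM in males (limma adjusted p = 2.40e-07). In all 3 loci both male libraries of 25–40 h were above both female libraries.

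Between 25–40 h and 55–70 h, 687 of 1750 unnamed loci rose (39.3%) beside 36.4% of all tested loci, and 315 fell (18.0%) beside 19.0%. The median difference was 0.44 on the log2 scale in unnamed loci, 0.19 in named single-gene loci and 0.23 in all tested loci. With quantile normalization the split turned to 400 higher and 489 lower. The age of the highest mean was 55–70 h for 55.5% of the 1750 unnamed and 46.4% of the 7339 named single-gene loci, and 55.1% for unnamed loci over 1 kb. Counted over all valid loci, 121, 77 and 299 unnamed loci (1.52%, 0.965% and 3.75%) reached 1 FPKM in every library of the youngest, middle or oldest embryos, in that order, and in no library of another age. Of the named single-gene loci 56, 18 and 311 did so (0.664%, 0.213% and 3.69%). Per 100 loci whose mean reached 1 FPKM these were 6.91, 4.4 and 17.1 unnamed and 0.763, 0.245 and 4.24 named single-gene loci. These are ratios and not shares, since the loci counted need not have a mean of 1 FPKM. Means of 1–3 FPKM, near the cut, belonged to 1171 of the 1750 unnamed and 1094 of the 7339 named single-gene loci. The part of this in the ratios was not tested.

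XLOC_004853, of 4740 bases on chromosome 4 (773487 to 778226) and 36318 bases from a locus that includes *tna*, was nearly silent before 55–70 h. Its levels were 0.0120 to 0.0160 FPKM at 10–15 h, 0.341 and 0.440 FPKM in females and 0.295 and 0.241 FPKM in males at 25–40 h, and 33.3 and 29.9 FPKM in females and 19.5 and 13.1 FPKM in males at 55–70 h. It rose by 4.15 ± 0.17 on the log2 scale in the second step (limma adjusted p = 3.22e-08). XLOC_002785, of 32201 bases on chromosome 2, rose from 0.441–6.21 FPKM to 21.4–64.8 FPKM (limma adjusted p = 1.16e-06), and XLOC_010485, of 2834 bases on chromosome 9 and 75 bases from LOC100577064, from 0.0145–0.161 FPKM to 8.26–18.3 FPKM (limma adjusted p = 2.87e-07). In these 3 loci the libraries of 25–40 h and 55–70 h did not overlap, which the rule for naming required.

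The largest falls in the second step by the same rule ended a peak at 25–40 h. XLOC_015379, of 2660 bases on chromosome 14, had 51.0 and 5.18 FPKM in females and 90.9 and 44.1 FPKM in males at 25–40 h, and 0.651 to 1.34 FPKM at 55–70 h, a fall of 4.12 ± 0.53 (limma adjusted p = 7.62e-05). Female replicate 1 of 25–40 h lay between the male libraries and female replicate 2 below both. XLOC_013719, of 84051 bases on chromosome 12 (9482874 to 9566924), had 19.4 and 20.6 FPKM in females and 48.7 and 46.6 FPKM in males at 25–40 h, 1.53 to 1.89 FPKM at 55–70 h and 0.472 to 1.08 FPKM at 10–15 h. It fell by 3.53 ± 0.15 (limma adjusted p = 4.14e-08). XLOC_017181, which fell by 3.72 ± 0.44 (limma adjusted p = 4.00e-05), belongs to the Hox complex.

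**Figure D4:**
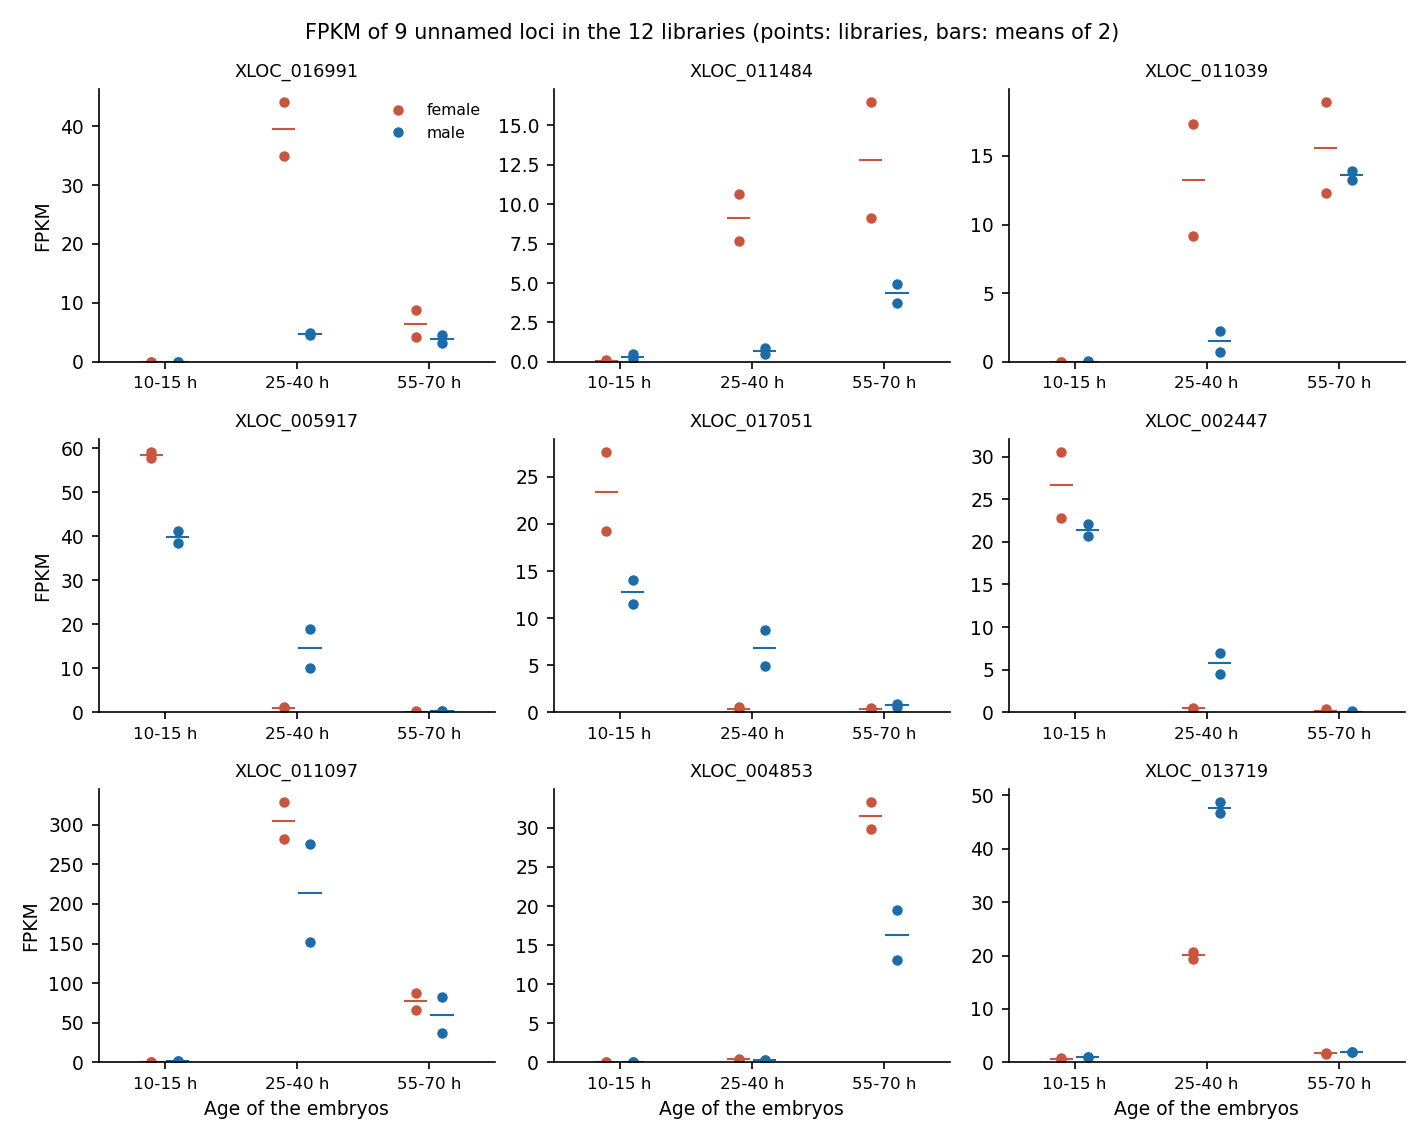
FPKM of 9 unnamed loci in each library (points) with the mean of the 2 libraries of a group (bars), by age and sex. XLOC_016991, XLOC_011484 and XLOC_011039 were higher in females at 25–40 h, XLOC_005917, XLOC_017051 and XLOC_002447 higher in males at that age, and XLOC_011097, XLOC_004853 and XLOC_013719 changed mainly with age.

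Between the sexes, the most unnamed loci were called at 25–40 h. At this age 104 of 1750 were higher in females (5.94%) beside 7.96% of all tested loci, and 116 were lower (6.63%) beside 6.68%. The median difference was -0.01 on the log2 scale in unnamed loci, and -0.03 in all tested loci. Under TPM scaling the split was 90 higher and 161 lower. The counts rest on a spread shared by all 12 libraries. A limma fit of only the 4 libraries compared called 0 and 0 (240 and 207 at unadjusted p under 0.05), and without male 25–40 h replicate 1 the counts were 36 and 50, without female 25–40 h replicate 2 47 and 42, with no other library moving them by over 1.5 times.

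Among loci above 0 and within their bounds, the 3 largest female excesses at 25–40 h were as follows. XLOC_016991, in the Hox complex, had 35.0 and 44.1 FPKM in females and 4.90 and 4.64 FPKM in males, a difference of 2.80 ± 0.31 on the log2 scale (limma adjusted p = 0.000435). XLOC_011484, of 969 bases on chromosome 10 (7544537 to 7545505) and 1779 bases from *SP30*, had 7.65 and 10.6 FPKM in females and 0.909 and 0.489 FPKM in males, a difference of 2.57 ± 0.31 (limma adjusted p = 0.000653). It also had higher levels in females at 55–70 h, with 16.5 and 9.12 against 4.96 and 3.76 FPKM, but this difference was not called (limma adjusted p = 0.0915). XLOC_011039, of 1339 bases on chromosome 10 (6057251 to 6058589) and 35031 bases from *Toll-6*, which encodes a Toll-family receptor, had 9.17 and 17.3 FPKM in females and 0.728 and 2.29 FPKM in males, a difference of 2.52 ± 0.37 (limma adjusted p = 0.00152). At 55–70 h its female (18.9 and 12.3 FPKM) and male levels (13.9 and 13.2 FPKM) overlapped.

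The 3 largest male excesses at 25–40 h, chosen in the same way, were at loci whose levels were highest at 10–15 h. XLOC_005917, with the values given for its fall with age, differed by -2.88 ± 0.28 (females minus males, limma adjusted p = 0.000257). XLOC_017051, of 6171 bases on chromosome 16 (4418392 to 4424562) and 836 bases from LOC551079, had 0.203 and 0.524 FPKM in females and 8.68 and 4.86 FPKM in males at 25–40 h, a difference of -2.48 ± 0.31 (limma adjusted p = 0.000733). At 10–15 h the order was the opposite, with 27.6 and 19.2 FPKM in females and 11.4 and 14.1 FPKM in males. That difference was not called (limma adjusted p = 0.125). XLOC_002447 differed by -2.20 ± 0.28 at 25–40 h (limma adjusted p = 0.000735). In the 3 loci the male libraries of 25–40 h lay between the male levels of 10–15 h and 55–70 h. They also lay above all female libraries of 25–40 h, which the rule for naming required.

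At 10–15 h 26 unnamed loci were higher in females (1.49%) beside 1.84% of all tested loci, and 25 were lower (1.43%) beside 7.23%. The median difference was 0 on the log2 scale in unnamed loci and -0.11 in all tested loci. The counts turned with the scaling, to 71 and 42 under median-ratio scaling, 35 and 18 under quantile normalization and 28 and 52 under TPM. They also turned with single libraries: limma called 0 and 0 without male 10–15 h replicate 1 (57 and 76 at unadjusted p under 0.05), 0 and 1 without male 10–15 h replicate 2 (72 and 68), 5 and 0 without female 10–15 h replicate 2 (77 and 57), 17 and 15 without either female library of 55–70 h, and 0 and 0 in a fit of only the 4 libraries compared (100 and 197 at unadjusted p under 0.05).

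XLOC_001504, of 3390 bases on chromosome 1 within the span of LOC724993, had 21.4 and 23.9 FPKM in females and 10.4 and 7.05 FPKM in males at 10–15 h, a difference of 1.30 ± 0.29 (limma adjusted p = 0.0253). XLOC_002856, of 116228 bases on chromosome 2, had 3.46 and 10.4 FPKM in females and 0.662 and 1.23 FPKM in males (1.89 ± 0.41, limma adjusted p = 0.0247). Lower in females were XLOC_013470, of 2053 bases on chromosome 11 in the span of a locus that includes the mRNA-capping enzyme gene, with 1.27 and 0.695 against 5.27 and 6.92 FPKM (-1.85 ± 0.42, limma adjusted p = 0.0274), and XLOC_009032, of 2083 bases on chromosome 8 in the span of *SmD3*, a gene of the splicing machinery, with 5.97 and 5.00 against 17.8 and 25.7 FPKM (-1.79 ± 0.48, limma adjusted p = 0.0460). Without female 10–15 h replicate 2 the difference of XLOC_002856 was 1.21 (limma adjusted p = 0.186), and its call was lost in 4 of 24 alternatives and that of XLOC_001504 in 6 of 25. The call of XLOC_009032 was lost in 16 of its 25 alternatives and that of XLOC_013470 in 8 of 24. The other loci named for this age, XLOC_017181 and XLOC_017401, lie in the Hox complex.

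At 55–70 h 10 unnamed loci were higher in females (0.571%) beside 0.327% of all tested loci, and 14 were lower (0.800%) beside 0.317%. Among named single-gene loci 20 and 17 were called (0.273% and 0.232%). The median difference was -0.05 in unnamed loci and -0.19 in all tested loci. Median-ratio scaling gave 12 and 6 and quantile normalization 21 and 7, and leaving out 1 library moved the counts between 2 (without male 10–15 h replicate 1) and 70 (without female 55–70 h replicate 2) higher and between 0 (without female 55–70 h replicate 1) and 55 (without male 55–70 h replicate 2) lower, within 1.5 times in only 3 of 12 fits each. Of the 10 loci called higher in females, none was above 0 and within its bounds in all 4 libraries. A fit of only the 4 libraries compared called 0 and 0 by limma (113 and 156 at unadjusted p under 0.05).

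Lower in females at 55–70 h were 3 loci above 0 and within their bounds in all 4 libraries. XLOC_003757, of 4097 bases on chromosome 3, had 0.401 and 1.38 FPKM in females and 6.29 and 5.87 FPKM in males (-1.96 ± 0.35, limma adjusted p = 0.0459). XLOC_011149, of 3295 bases on chromosome 10 within the span of LOC100577868, had 0.855 and 1.07 against 5.43 and 4.68 FPKM (-1.63 ± 0.25, limma adjusted p = 0.0252), and XLOC_013371, of 2381 bases on chromosome 11 within the span of a locus that includes *nrm*, 1.07 and 1.14 against 6.13 and 4.85 FPKM (-1.62 ± 0.26, limma adjusted p = 0.0252). The 3 calls were lost in 15, 9 and 9 of the alternatives tried for each.

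Averaged over the ages, 42 unnamed loci were higher in females (2.40%) beside 3.75% of all tested loci, and 71 were lower (4.06%) beside 8.18%. In named single-gene loci 3.92% were higher and 9.02% lower. The median difference was -0.03 in unnamed and -0.14 in all tested loci, and the split between higher and lower turned to 83 and 54 with median-ratio scaling, to 68 and 41 with quantile normalization and to 44 and 155 with TPM. Without single libraries the counts ranged from 9 (without male 10–15 h replicate 1) to 71 (without female 25–40 h replicate 1) higher and from 14 to 148 lower, at the same libraries, within 1.5 times in 4 and 3 of the 12 fits.

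XLOC_008174, of 5374 bases on chromosome 7 and 6399 bases from a locus that includes *Nipped-B*, a cohesin loading factor in *Drosophila*, was the single locus higher in females that met the rule for naming. It had 19.3 and 15.1 FPKM in females and 8.96 and 7.78 FPKM in males at 10–15 h, 4.79 and 6.20 against 4.21 and 4.39 FPKM at 25–40 h, and 0.946 and 1.41 against 0.809 and 0.475 FPKM at 55–70 h (0.55 ± 0.14, limma adjusted p = 0.0379). The rule required the same order of the sexes without overlap at every age. XLOC_011166, of 4266 bases on chromosome 10, was lower in females, with 3.34 and 2.57 against 6.05 and 6.74 FPKM, 0.408 and 0.198 against 2.25 and 2.38 FPKM, and 0.110 and 0.0499 against 0.335 and 0.151 FPKM (-0.82 ± 0.13, limma adjusted p = 0.00993). Its averaged difference was called under every alternative tried, but at 55–70 h alone it was not called (limma adjusted p = 0.687). XLOC_009785 and XLOC_011764 were also lower in females (-0.73 ± 0.18 and -0.70 ± 0.17, limma adjusted p = 0.0311 and 0.0306), but were not called under 9 and 11 of the alternatives tried. Neither was called at a single age (lowest limma adjusted p = 0.0732 and 0.0632). The call of XLOC_008174 was lost under 13.

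The difference between the sexes depended on age at 123 unnamed loci (7.03%) beside 10.0% of all tested loci (limma F test of the interaction). Leaving out 1 library moved the count to 42 or 48 (male 10–15 h replicate 2 or 1), 44 (male 25–40 h replicate 1), 59 (female 10–15 h replicate 2), 67 (female 55–70 h replicate 1) or 189 (female 55–70 h replicate 2), and by less than 1.5 times for the other 6. The 5 with the smallest p differed between the sexes mainly at 25–40 h. XLOC_006860, of 2324 bases on chromosome 6 (10237297 to 10239620) within the span of LOC100577083, had 131 and 139 FPKM in females and 103 and 120 FPKM in males at 10–15 h, 2.90 and 4.04 against 54.5 and 32.0 FPKM at 25–40 h, and 0.243 to 0.595 FPKM in all 4 libraries of 55–70 h. XLOC_017325, of 2060 bases on chromosome 16, had 194 and 99.9 FPKM in females and 84.4 and 113 FPKM in males at 10–15 h, 1.26 and 0.827 against 26.5 and 18.4 FPKM at 25–40 h, and 0.228 to 0.624 FPKM at 55–70 h. XLOC_005917 and XLOC_017423 also had male libraries above female libraries at 25–40 h.

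XLOC_014473, of 4127 bases on chromosome 13 (886023 to 890149) and 1223 bases from LOC100577835, had the opposite order. It had 1.39 and 1.24 FPKM in females and 0.577 and 0.803 FPKM in males at 10–15 h, 38.1 and 57.2 against 3.66 and 5.02 FPKM at 25–40 h, and 35.2 and 25.2 against 32.9 and 27.5 FPKM at 55–70 h. At 25–40 h its female libraries lay above all 4 libraries of 55–70 h and its male libraries below them. In these 5 loci adjusted p of the interaction ranged from 0.00270 to 0.00345 (limma). In 4 of them FPKM lay within the bounds in only 6 of 12 libraries, and the values outside exceeded the upper bound. In XLOC_006860, for example, 131 FPKM stood above an upper bound of 122 FPKM. The fifth, XLOC_005917, was within its bounds in all 12.

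A stretch of chromosome 16 held several of the loci named so far. The Hox genes encode transcription factors that give body regions their identity along the head-to-tail axis, and they lie in a cluster in the order of the regions they pattern. In *Drosophila* the DNA between the posterior Hox genes is also transcribed into non-coding RNAs. Between the starts and ends of the named loci *lab* and *Abd-B* (2215239 to 3428929) lay 185 unnamed loci, of which 42 had a mean of at least 1 FPKM and were tested. The stretch was chosen after the positions and values of the loci were seen, so the counts are a description, and neighbouring loci may be parts of the same transcript.

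Of the 42 loci, 32 rose and 6 fell from 10–15 h to 25–40 h, beside 47.6% and 23.6% of all tested loci, with a median difference of 1.74 on the log2 scale. From 25–40 h to 55–70 h 7 rose and 20 fell, beside 36.4% and 19.0%, with a median of -0.48. The highest mean was at 25–40 h for 27 of the 42 (64.3%), compared with 24.3% of the 1750 tested unnamed loci. In females 12 were higher and 6 lower at 25–40 h, beside 7.96% and 6.68% of all tested loci. The averaged sex difference was called higher for 7 and lower for 2 (beside 3.75% and 8.18%), the difference at 10–15 h for 3 and 1 (beside 1.84% and 7.23%), and the interaction for 14 (beside 10.0%). At 55–70 h limma called 0 higher and 0 lower (3 and 0 at unadjusted p under 0.05), beside 0.327% and 0.317%.

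The first loci in the order of the chromosome lay on both sides of *Scr*, the Hox gene of the labial and first thoracic segments in *Drosophila*. XLOC_017181, of 7949 bases (2562154 to 2570102), lay 2690 bases from *Scr*, between it and the locus that includes *Antp*. It had 8.69 and 0.840 FPKM in females and 29.4 and 28.8 FPKM in males at 10–15 h (-2.83 ± 0.62, limma adjusted p = 0.0248). Without female 10–15 h replicate 2 the difference was -1.64 (limma adjusted p = 0.170), and the call was lost in 4 of 25 alternatives. Its levels at 25–40 h were 18.0 and 7.62 FPKM in females and 45.3 and 40.6 FPKM in males, and at 55–70 h 0.546 to 1.16 FPKM in all 4. The *Scr* locus had the opposite order at 10–15 h, with 25.9 and 25.5 FPKM in females and 12.8 and 12.5 FPKM in males. XLOC_017401, of 853 bases, lay within the span of a locus that joins LOC100577612 and LOC100578198. It had 3.43 and 2.54 FPKM in females and 0.252 and 0.813 FPKM in males at 10–15 h (1.39 ± 0.38, limma adjusted p = 0.0460), and 1.93 and 0.897 against 6.13 and 2.70 FPKM at 25–40 h. The joined locus had the same order of the sexes, with 74.0 and 91.0 against 36.5 and 36.7 FPKM at 10–15 h. At 25–40 h it had 99.9 and 64.9 against 217 and 142 FPKM. The call of XLOC_017401 was lost under 13 of 24 alternatives.

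A run of 6 neighbouring loci, XLOC_017423 to XLOC_017427 and XLOC_017429, lay within the span of LOC100578712 and was highest at 10–15 h in females. XLOC_017423, of 542 bases (2868821 to 2869362), had 24.3 and 24.4 FPKM in females and 10.1 and 7.24 FPKM in males at 10–15 h, 0.366 and 1.10 against 16.6 and 8.03 FPKM at 25–40 h, and 0.0678 to 0.265 FPKM at 55–70 h. The other 5 had female means of 9.82 to 61.7 FPKM at 10–15 h and 0.404 to 2.46 FPKM at 25–40 h, and male means of 3.71 to 45.8 FPKM and 0.945 to 15.4 FPKM. These 5 measured 203 to 473 bases. In the order of the chromosome their FPKM lay within its bounds in only 6, 4, 1, 2 and 7 of 12 libraries. LOC100578712 itself had 86.6 and 75.9 FPKM in females at 10–15 h, 2.87 and 3.28 FPKM at 25–40 h, and 35.7, 36.7, 17.0 and 9.93 FPKM in the male libraries of these ages. With the sexes averaged, all 6 were called lower at 25–40 h than at 10–15 h (limma), and in males the libraries of these ages overlapped at XLOC_017423 and XLOC_017427.

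The longer loci from *Ubx* towards *Abd-B* had low levels at 10–15 h. XLOC_016990, of 80649 bases (3057837 to 3138485), overlapped the end of the locus that includes *Ubx* and filled most of the space before *Abd-A*. It had 2.16 and 0.885 FPKM in females and 0.376 and 0.553 FPKM in males at 10–15 h, 82.6 and 102 against 40.0 and 69.4 FPKM at 25–40 h, and 9.27 to 10.7 FPKM in the 4 libraries of 55–70 h. The *Ubx* locus moved less, from 15.8–22.5 FPKM to 47.8 and 51.8 FPKM in females and 18.9 and 25.6 FPKM in males at 25–40 h.

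XLOC_016991, of 8472 bases (3143315 to 3151786), lay between *Ubx* and *Abd-A*, 4407 bases from the latter. Beside the 25–40 h values given above, it had 0 to 0.0331 FPKM at 10–15 h and 8.81 and 4.20 FPKM in females and 4.56 and 3.23 FPKM in males at 55–70 h. *Abd-A*, a Hox gene of the abdomen, had 13.6 and 10.7 FPKM in females and 1.96 and 4.11 FPKM in males at 25–40 h. XLOC_016998, of 15701 bases (3265026 to 3280726) between *Abd-A* and *Abd-B*, had 0.114 to 0.138 FPKM at 10–15 h, female and male means of 62.8 and 9.69 FPKM at 25–40 h, and of 26.6 and 20.4 FPKM at 55–70 h. Its sex difference at 25–40 h was 2.57 on the log2 scale (limma adjusted p = 0.000319).

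The loci nearest *Abd-B* had their highest levels at 55–70 h. XLOC_017527, XLOC_017528 and XLOC_017529 (3407238 to 3414773) rose by 2.05, 3.04 and 2.61 on the log2 scale from 25–40 h to 55–70 h. XLOC_017529 had means of 0.176 and 0.196 FPKM in females and males at 10–15 h, 5.59 and 1.44 FPKM at 25–40 h, and 21.5 and 26.0 FPKM at 55–70 h. *Abd-B* itself had 0.168 to 0.352 FPKM, 0.173 to 0.971 FPKM and 2.79 to 5.75 FPKM in the 3 ages.

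**Figure D5:**
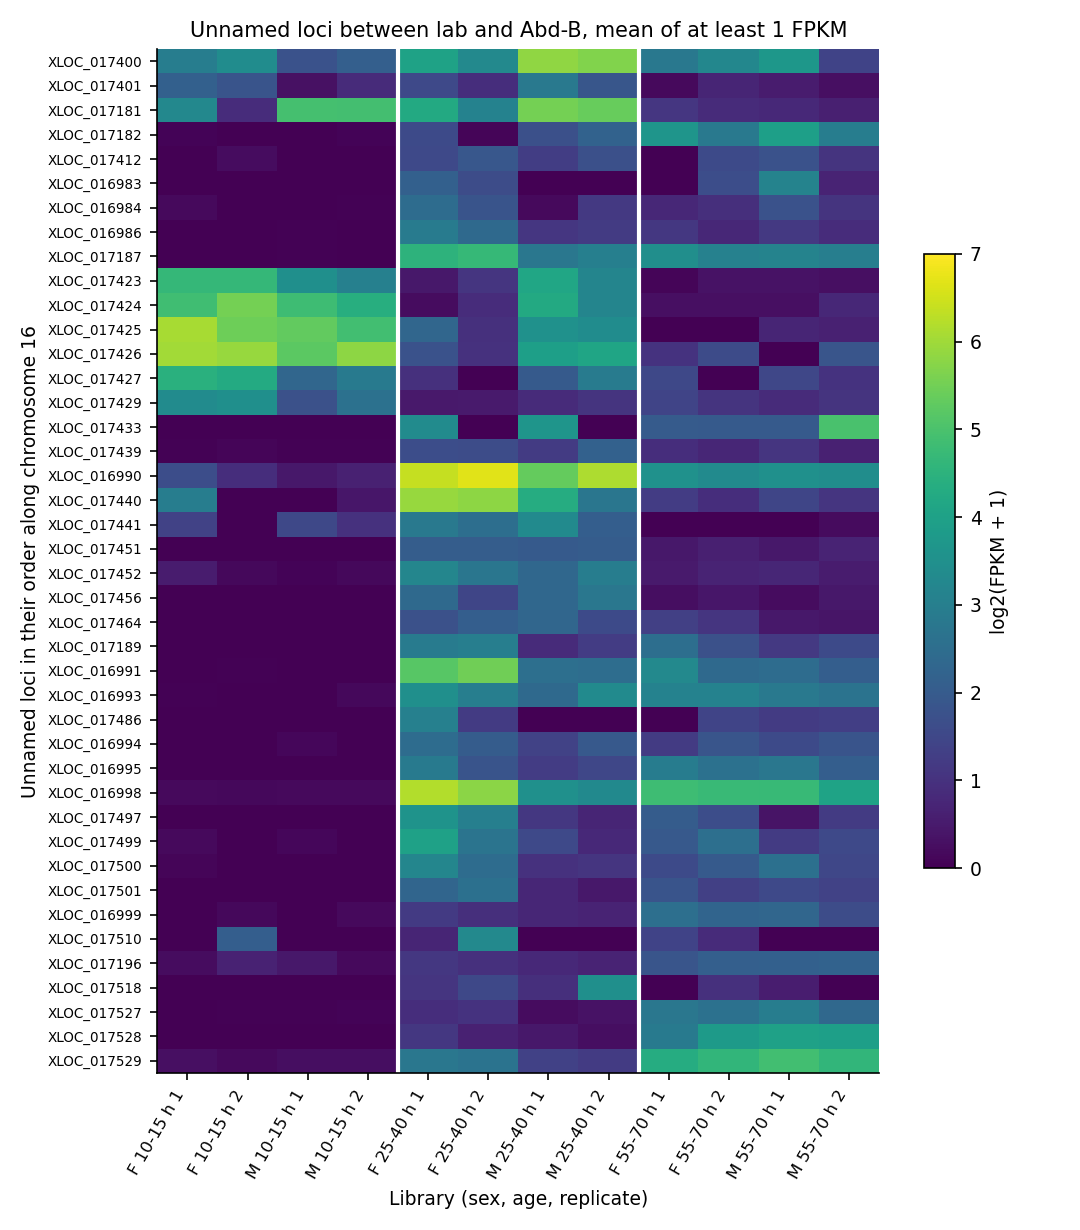
Levels as log2(FPKM + 1) of the 42 tested unnamed loci between *lab* and *Abd-B*, in rows in their order along chromosome 16, in the 12 libraries (columns, grouped by age, white lines between ages). The rows of XLOC_017423 to XLOC_017429 are bright at 10–15 h, most rows are brightest at 25–40 h (27 of 42 by mean level), and the last 3 rows are brightest at 55–70 h.

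Other unnamed loci had more even levels. Of 38 whose mean reached 10 FPKM with all values within their bounds, the 3 with the smallest range of group means on the log2 scale were XLOC_011170, XLOC_012826 and XLOC_005492. XLOC_011170, of 3299 bases on chromosome 10 and 51 bases from *msn*, a protein kinase gene in *Drosophila*, ranged from 20.3 to 39.6 FPKM over the 12 libraries. XLOC_005492, of 7048 bases on chromosome 5, ranged from 12.2 to 37.1 FPKM. XLOC_012826, of 1271 bases on chromosome 11, ranged from 43.7 to 98.7 FPKM and was lower in females at every age, by 0.62 ± 0.13 on the log2 scale averaged over ages (limma adjusted p = 0.0197). Outside this rule, XLOC_002402, the longest unnamed locus, ranged from 10.2 to 44.5 FPKM and fell by 0.93 ± 0.30 from 25–40 h to 55–70 h (limma adjusted p = 0.0225).

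The changes of unnamed loci were set beside those of the nearest named locus. For the step from 10–15 h to 25–40 h the correlation of log2 differences across pairs of an unnamed and its nearest named locus was 0.417 within 1 kb (n = 391), 0.321 inside the named span (n = 460), 0.220 at 1–10 kb (n = 424) and 0.147 beyond 10 kb (n = 267). The difference had the same sign in 66.5% of the pairs within 1 kb and in 54.3% of those beyond 10 kb. For the step from 25–40 h to 55–70 h the correlation was 0.538 within 1 kb, 0.418 inside the named span, 0.417 at 1–10 kb and 0.145 beyond 10 kb, and for the sex difference averaged over ages 0.365, 0.213, 0.213 and 0.242. Differences between these correlations were not tested. For the first step, in pairs of a named single-gene locus and its nearest named locus the correlation was 0.125 within 1 kb (n = 1896). It was 0.199 inside the span (n = 1111), 0.0981 at 1–10 kb (n = 651) and 0.00327 beyond 10 kb (n = 111). In the same order it was 0.239, 0.292, 0.370 and 0.368 for the second step. For the sex difference it was 0.126, 0.146, 0.270 and 0.0896. The named pairs were thus above the unnamed beyond 10 kb in the second step and at 1–10 kb for sex. The mean FPKM of the unnamed locus was a median of 0.247 times that of the named neighbour within 1 kb and 0.123 times inside the named span. These are descriptions across loci of the same libraries, and reads of a neighbouring gene assigned to the unnamed locus were not tested.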

How the data were processed

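Poly(A) RNA of 12 pools of honeybee embryos was sequenced, with 2 libraries for each of 6 groups of sex and age. The authors deposited for each library a Cufflinks table of FPKM per locus, with a lower and an upper confidence bound and a flag for the validity of the estimate. In the submitters' processing notes Bowtie2 2.2.6, TopHat2 2.2.1 and Cufflinks 2.2.1 are listed. The genome build and the annotation behind the gene names are not given by these notes or the study's methods, and the tables hold no counts, so depth per library is unknown and no counting interval can be given.

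Loci were kept where the status was valid in all 12 libraries. Length and position came from the locus coordinates, counted from 1. Log2(FPKM + 1) of loci whose mean reached 1 FPKM was fitted with limma 3.58.1 in R 4.3.3 as 6 group means with a variance trend, from which all contrasts were taken, with Benjamini–Hochberg adjustment over 10105 loci. The fit was tested on simulated data. Library totals were compared by exact two-sided permutation tests. Fold changes are on the log2(FPKM + 1) scale, which understates changes of low loci. Python 3.11.15 with pandas 2.3.3 was used for the rest.

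Named in the text are the 5 loci with the highest mean; up to 3 called loci per contrast and direction with the largest difference among those above 0 and within their bounds in every library compared and with no overlap of the groups; loci at 0 in a library and at 1000 FPKM or more in another, with the 5 next; loci at 0 in one sex and at 10 FPKM or more in the other; the 5 smallest p of the interaction; the 3 most even loci; and the shortest and longest tested. The members, lists and rules were chosen with earlier results of these data known. Alternatives were other pseudocounts, filters, scalings, the midpoint of the bounds, any status, no variance trend, a replicate block, a fit of only the libraries compared, and each library left out. No sequence is shown, since no table used here holds one.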

Additional observations from a re-analysis of the deposited data

Results flagged for a closer look

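Among the 123 unnamed loci whose difference between the sexes changed with age by the limma F test of the interaction, these were the 5 with the smallest p. The log2 differences, females minus males from the youngest to the oldest age, follow. XLOC_006860 had 0.27, -3.27 and -0.04 (limma, Benjamini–Hochberg adjusted p = 0.00270). XLOC_017325 had 0.51, -3.51 and -0.28 (limma, Benjamini–Hochberg adjusted p = 0.00312). XLOC_005917 had 0.55, -2.88 and -0.11 (limma, Benjamini–Hochberg adjusted p = 0.00312). XLOC_017423 had 1.40, -2.90 and -0.10 (limma, Benjamini–Hochberg adjusted p = 0.00312). XLOC_014473 had 0.46, 3.17 and -0.01 (limma, Benjamini–Hochberg adjusted p = 0.00345). At 25–40 h the 2 libraries of each sex did not overlap in any of the 5. The same held for all 104 higher and 116 lower unnamed loci called at that age, so it was not particular to the 5. Groups held 2 libraries each, too few for a search for single libraries that stand apart.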

How the results depend on the processing

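Counts of called unnamed loci are given here as higher and lower. With a pseudocount of 0.1 the sex difference at 10–15 h had 62 lower and that at 55–70 h 2 and 5; with a pseudocount of 5 the latter had 30 and 22. With a mean of at least 5 FPKM the counts were 9 and 16 at 10–15 h, 32 and 40 at 25–40 h, 1 and 1 at 55–70 h, 18 and 33 averaged, 181 and 77 for the first age step, 127 and 92 for the second, and 58 for the interaction. With no filter they were 55 and 42, 192 and 208, 75 and 105, 2399 and 1229 for the first step, 2667 and 919 for the second, and 222 for the interaction. These filters change the number of loci tested. Median-ratio scaling gave 71 and 42 at 10–15 h, 6 lower at 55–70 h, 83 higher averaged and 195 for the interaction. Quantile normalization gave 21 and 7 at 55–70 h, 68 and 41 averaged, 536 higher in the first step, and 400 and 489 in the second. TPM gave 52 lower at 10–15 h, 4 and 7 at 55–70 h and 155 lower averaged. At 55–70 h the midpoint of the bounds gave 17 higher, any status 6 and 8, and loci of at least 300 bases alone, an alternative chosen after seeing the data, 22 higher. A fit of only the libraries compared called 0 and 0 in each of the 3 ages. The cause of the other shifts was not tested.

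Leaving out 1 library gave ranges of 0 to 33 and 0 to 35 at 10–15 h, 36 to 138 and 42 to 159 at 25–40 h, 2 to 70 and 0 to 55 at 55–70 h, 9 to 71 and 14 to 148 averaged, 736 to 865 and 291 to 317 for the first age step, 615 to 717 and 267 to 317 for the second, and 42 to 189 for the interaction. With the replicate number as a replicate block the counts were 19 and 20, 96 and 116, 8 and 9, 31 and 55 averaged, 817 and 315, 680 and 303, and 101. Deviations of same-numbered libraries correlated between -0.279 and 0.166 across loci. The labels do not say whether the numbers pair the libraries, and these correlations cannot exclude a pairing that acts on few loci.

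The share of FPKM in unnamed loci differed between females and males by -0.00809 points at the midpoint, -0.485 with any status, -0.0118 without loci up to 200 bases (chosen after seeing the data) and -1.22 to 2.77 without 1 library, the lowest without female 10–15 h replicate 2. From 10–15 h to 25–40 h it changed by 0.202 at the midpoint, 0.634 without values outside their bounds (exact permutation p = 0.0286), 0.162 without loci up to 200 bases and -1.94 to 2.20 without 1 library, the highest without female 10–15 h replicate 2. From 25–40 h to 55–70 h it changed by 0.223 without values outside their bounds, 0.0983 without loci up to 200 bases and -1.49 to 0.139 without 1 library, the highest without male 25–40 h replicate 2. The median share ranged from 2.93% to 3.14% without 1 library. The replicate difference of unnamed loci was 0.52 and 0.13 at pseudocounts of 0.1 and 5 and that of named loci 0.36 and 0.19, so the order of the 2 kinds turned at 5. The 31 differences of the unnamed loci singled out per contrast and direction kept their sign in all 761 alternatives. These loci had been chosen for large differences without overlap of the groups, so a kept sign was largely fixed by the choice. The 299 alternatives for age kept the call, and 123 of the 462 for sex lost it. Without counts, the depth behind short loci could not be judged.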
